A study of Mus musculus with 6 samples.

Results

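The type I interferon-stimulated genes described here are 39 genes that interferon is known to induce, taken by gene name from a count table of 51826 gene identifiers of the mouse ovary. A gene belonged to the list by its name alone, and the list was drawn up with earlier results of these data known. All 39 names matched 1 row each, and all 39 were kept by the filter on low counts, which left 19027 genes to test. They comprise 19 antiviral effectors, 5 sensors of nucleic acid or kinases activated by it, 3 transcription factors, 3 members of the Isg15 system, 1 chemokine and 8 genes of other or less defined function.

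The study profiled ovarian RNA of ICR mice, an outbred strain, by bulk RNA sequencing in 3 groups of 2 libraries. The first group was a murine model of the ovarian hyperstimulation syndrome (OHSS) that received nintedanib, an inhibitor of the VEGF, FGF and PDGF receptor tyrosine kinases also known as bibf1120. The second came from OHSS mice without the drug, and the third is labelled COH, an abbreviation left unexplained there. The labels name no genetic modification, and the age of the animals, the hormones given, and the dose, route and time of the drug were not stated in the records available here. In OHSS, hormonal stimulation of the ovary is followed by ovarian enlargement and leaky vessels, and the study asked how drug treatment changed ovarian gene expression in that state. Whether the 2 libraries of each group stem from different animals is not recorded, and p-values then reflect no more than sample-to-sample spread, possibly technical. Libraries are named below by group and replicate number.

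Type I interferons are secreted proteins that bind a receptor made of Ifnar1 and Ifnar2 and activate the kinases Jak1 and Tyk2. These phosphorylate transcription factors such as Stat2, which joins Irf9 in a complex that binds an element called the interferon-stimulated response element (ISRE) in the promoters of many genes. The proteins made from these genes detect foreign nucleic acid, block viral translation and replication, and include both amplifiers and brakes of the pathway.

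The promoters of the listed genes were examined for the ISRE core as a description. The genes were listed because interferon is known to induce them. A high share of matches can therefore come from the choice of the list alone and says nothing of these libraries. The motif searched was GAAA, any 2 bases and GAAA again on the gene strand, or its reverse complement, TTTC, any 2 bases and TTTC,, in windows of 300 bases around RefSeq start sites of the GRCm38.p6 build. A promoter entry was found for 29 of the 39 genes, and 17 of these 29 (58.6%) held at least 1 match. Among all 27025 genes with an entry, 1079 (3.99%) held one. Windows with at least 2 matches, which may overlap, were found for 8 of the 29 (27.6%) and for 72 of the 27025 (0.266%). A match is a description of the letters and not a measured binding site. Windows of 60 bases are shown for 10 genes whose levels are described below, each 5′ to 3′ on the gene strand, with the matched bases in capitals.
Isg15: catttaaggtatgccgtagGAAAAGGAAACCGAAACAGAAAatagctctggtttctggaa
Ifit1: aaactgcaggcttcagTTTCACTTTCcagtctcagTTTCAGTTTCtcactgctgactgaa
Ifit3: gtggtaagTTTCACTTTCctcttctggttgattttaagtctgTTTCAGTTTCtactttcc
Ifit3b: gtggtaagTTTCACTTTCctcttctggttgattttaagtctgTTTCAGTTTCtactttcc
Oas1a: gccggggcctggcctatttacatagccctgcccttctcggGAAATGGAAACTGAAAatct
Oas1g: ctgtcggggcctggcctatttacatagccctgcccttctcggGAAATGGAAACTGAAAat
Bst2: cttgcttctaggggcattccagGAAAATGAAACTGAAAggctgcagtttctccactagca
Gbp3: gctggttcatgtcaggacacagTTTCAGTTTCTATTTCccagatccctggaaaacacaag
Rsad2: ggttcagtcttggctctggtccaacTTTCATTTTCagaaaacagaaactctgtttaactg
Cxcl10: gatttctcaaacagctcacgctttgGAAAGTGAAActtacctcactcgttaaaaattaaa

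The Isg15 window lies at chr4:156200856-156200915 on the minus strand and holds 3 overlapping matches, the first starting at position -78 and the last at -66 from the start site. The Ifit1 window lies at chr19:34640769-34640828 on the plus strand, the Ifit3 window at chr19:34583365-34583424 and the Ifit3b window at chr19:34607761-34607820, both on the plus strand. The windows shown for Ifit3 and Ifit3b have the same letters. Those of Oas1a (chr5:120907526-120907585) and Oas1g (chr5:120887614-120887673), both on the minus strand, share their matched bases and most of the bases around them. The Bst2 window (chr8:71537565-71537624, minus strand) and the Gbp3 window (chr3:142559977-142560036, plus strand) each hold an overlapping pair of matches. Rsad2 (chr12:26456538-26456597, minus strand) and Cxcl10 (chr5:92349068-92349127, minus strand) each hold 1 match. No match was found in the windows of 12 genes, among them Irf7, Ifi44, Oasl2, Ifit2, Herc6 and Xaf1. Parp9, Dhx58, Mx1, Mx2, Rtp4, Ifi27l2a, Parp14, Usp18, Oas2 and Zbp1 had no promoter entry in the table.

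Total counts per library were 28498435 and 31308357 with nintedanib, 32390829 and 30993703 in OHSS, and 34716751 and 28609601 in COH. The 39 genes took 0.291 and 0.780% of these counts with nintedanib, 0.450 and 0.110% in OHSS, and 0.0673 and 0.0657% in COH. The share was close in both COH libraries and differed several-fold between the libraries of each OHSS group. Levels below are CPM, counts scaled to a common library size, which allow a gene to be compared across libraries but not with another gene. The median fold of the 39 genes over the COH mean was 6.51 in nintedanib replicate 1, 15.5 in nintedanib replicate 2, 9.58 in OHSS replicate 1 and 2.19 in OHSS replicate 2. The median over the 18458 genes counted in every library lay within 0.02 of 0 on the log2 scale in each library. OHSS replicate 2 therefore stood nearest to COH for these genes, and the medians of the 39 and the fold changes of OHSS against COH of genes described in full are also given without one of the OHSS libraries.

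The libraries took nearly the same order for all the genes. Nintedanib replicate 2 was the highest of the 6 libraries for 39 of the 39 genes, against 22% of all genes tested. The order nintedanib replicate 2, OHSS replicate 1, nintedanib replicate 1, OHSS replicate 2 and then both COH libraries held for 35 of the 39, against 1.22% of all genes tested. The 4 exceptions were Oasl2, Bst2, Cxcl10 and Xaf1. Of the 100 genes that stood highest over the other 5 libraries in each library, out of 12303 genes with a mean of at least 5 CPM, the list held 30 in nintedanib replicate 2, 23 in OHSS replicate 1, 10 in nintedanib replicate 1 and 0 in OHSS replicate 2 and in each COH library. The heatmap of fold over COH, whose columns stand by group, shows this order as depth of colour, deepest in nintedanib replicate 2 and palest in the COH columns.

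**Figure D1:**
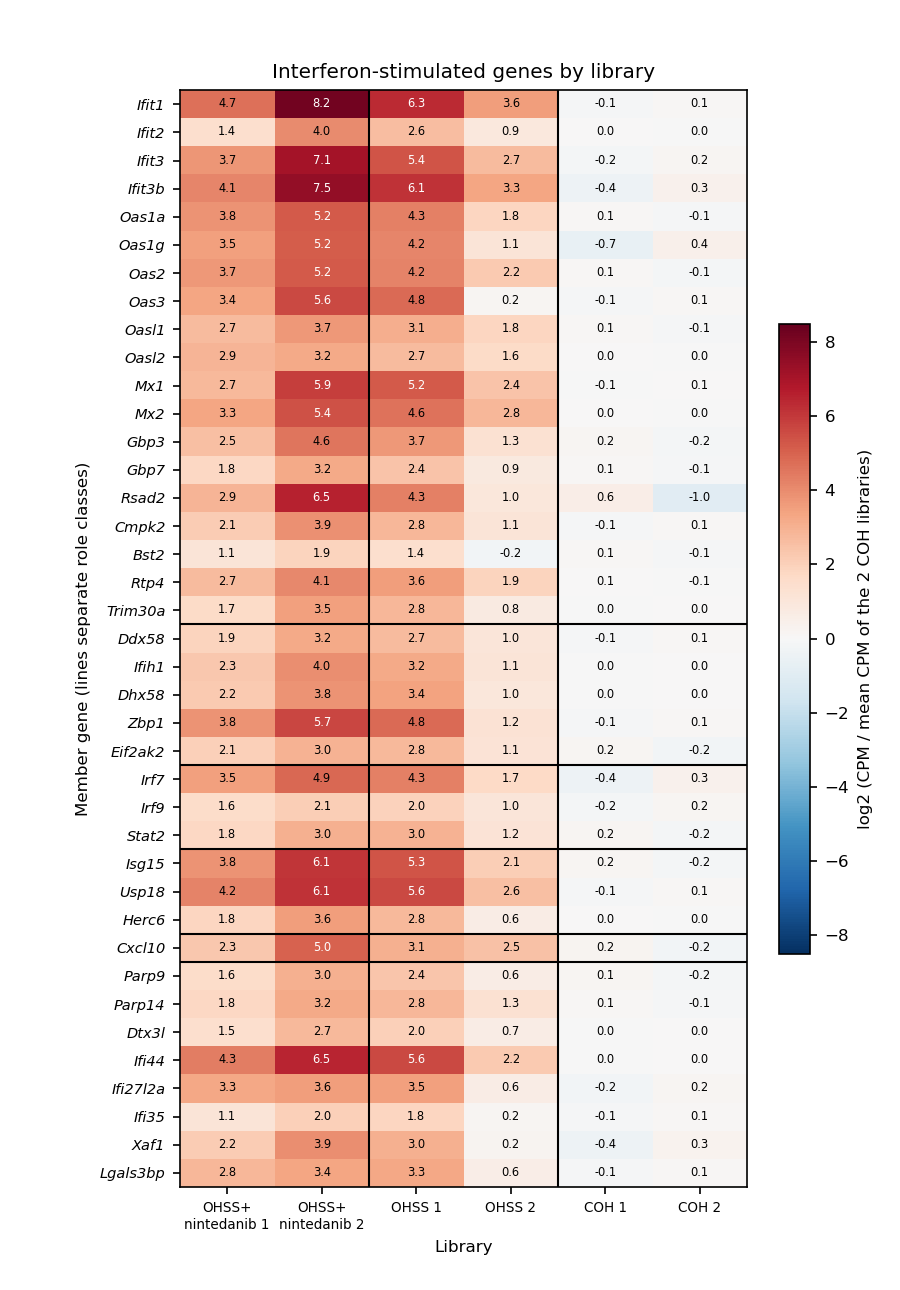
Level of each of the 39 interferon-stimulated genes (rows, in role classes separated by lines) in each of the 6 libraries (columns), as log2 of the CPM over the mean CPM of the 2 COH libraries; the printed value is that log2 ratio. Nintedanib replicate 2 has the highest value in each row, and OHSS replicate 2 is the palest of the 4 OHSS columns, with a median fold of 2.19 over COH.

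Within the 2 groups of the OHSS model the libraries differed widely. OHSS replicate 1 was above OHSS replicate 2 for all 39 genes, by 1.45-fold for Cxcl10 to 25.1-fold for Oas3, with a median of 4.35-fold. Nintedanib replicate 2 was above nintedanib replicate 1 for all 39, by 1.22-fold for Ifi27l2a to 12.6-fold for Rsad2, with a median of 3.10-fold. The gap between the higher library of each group was smaller, since nintedanib replicate 2 exceeded OHSS replicate 1 by a median of 1.69-fold and by less than 1.5-fold for 13 genes. It exceeded OHSS replicate 1 by more than 3-fold for 4 genes, Ifit1, Ifit3, Rsad2 and Cxcl10. Nintedanib replicate 1 exceeded OHSS replicate 2 by a median of 2.17-fold and for 38 of the 39, the exception being Cxcl10 at 0.836-fold. In bulk RNA, a change in the number of cells that express these genes and a change in RNA per cell cannot be told apart.

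OHSS was compared with COH to ask what the model itself carries. The mean of all 39 genes was higher in OHSS, with a median log2 fold change of 2.65 and a range of 0.82 for Bst2 to 5.51 for Ifit1, beside a median of -0.003 over all genes tested. Effectors had a median log2 fold change of 3.35, sensors 2.49, transcription factors 2.32, the Isg15 system 4.46 and the other genes 2.23. edgeR's quasi-likelihood test called 0 of the 39 at a Benjamini-Hochberg adjusted p below 0.05, beside 0.0105% of all genes (2 of 19027), and the lowest adjusted p of the list was 0.395. At an unadjusted p below 0.05, 30 of the 39 were higher, beside 4.59% of all genes. DESeq2 called 21 of the 39 higher, beside 1.21% of all genes, while limma voom called 0 (0% of all genes) and had 6 of the 39 under an unadjusted p of 0.05, beside 4.07% of all genes. The libraries of both groups did not overlap for 37 of the 39, beside 21.2% of all genes, the exceptions being Bst2 and Xaf1. Without OHSS replicate 1 the median log2 fold change was 1.14, with 38 of 39 higher and 11 at an unadjusted p below 0.05, beside 1448 of 20055 genes in either direction. Without OHSS replicate 2 it was 3.25, with 39 of 39 higher and 38 at an unadjusted p below 0.05, beside 1702 of 19964 genes in either direction. In these fits the remaining OHSS library was assumed to vary like the other groups.

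Nintedanib-treated OHSS was compared with OHSS to ask what the drug changed in the model. The means of all 39 genes were higher with nintedanib, with a median log2 fold change of 0.85 and a range of 0.22 for Stat2 to 2.23 for Rsad2, beside a median of 0.01 over all genes. None of these differences passed the test against the spread between libraries. edgeR called 0 of the 39, beside 0.00526% of all genes (1 of 19027), with 0 at an unadjusted p below 0.05 beside 3.95% of all genes in the same direction, and the lowest adjusted p was 0.675. DESeq2 called 0, beside 0.604% of all genes, while limma voom called 0 (0.00526% of all genes) and had 1 under an unadjusted p of 0.05, beside 3.65% of all genes. The groups were apart for 1 gene, Oasl2, beside 19.2% of all genes. The direction itself rested on single libraries. Without nintedanib replicate 2 the median log2 fold change was -0.18 and 9 of the 39 were higher, and without OHSS replicate 2 it was 0.16 with 28 of the 39 higher. Without OHSS replicate 1 it was 2.31 and 27 of the 39 had an unadjusted p below 0.05, beside 1694 of 20055 genes in either direction, with 0 called. Without nintedanib replicate 1 it was 1.45.

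Nintedanib-treated OHSS was also compared with COH. All 39 genes were higher with nintedanib, with a median log2 fold change of 3.35 and a range of 1.54 for Bst2 to 7.35 for Ifit1, beside a median of -0.001 over all genes. The groups did not overlap for any of the 39, beside 22.3% of all genes that were apart in that direction. edgeR called 0 of the 39, beside 0.0263% of all genes (5 of 19027), with 39 at an unadjusted p below 0.05 beside 5.62% of all genes and a lowest adjusted p of 0.222. DESeq2 called 33 higher, beside 1.66% of all genes, while limma voom called 0 (0.0105% of all genes) and had 24 under an unadjusted p of 0.05, beside 5.06% of all genes. The median log2 fold change was 2.70 without nintedanib replicate 2 and 3.95 without nintedanib replicate 1. In the fit without nintedanib replicate 1, 1 of the 39 was called, as were 53 genes in all. The comparisons share libraries, so their values are given side by side in the plot of fold changes and are not independent of each other.

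**Figure D2:**
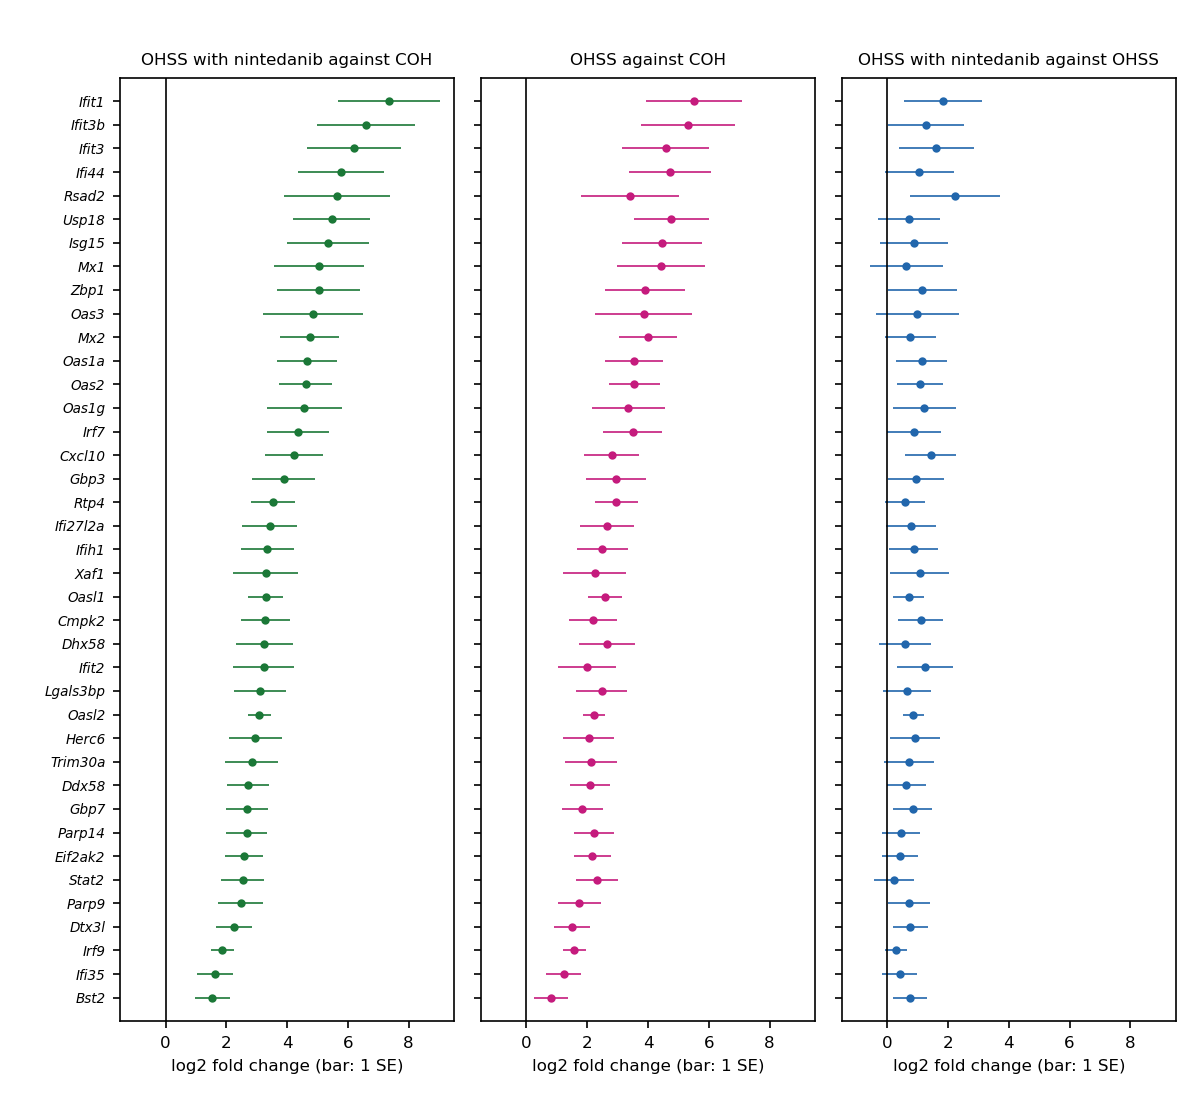
log2 fold change of each of the 39 genes (rows, sorted by the left panel) from the edgeR fit, with bars of 1 standard error, for nintedanib-treated OHSS against COH (left), OHSS against COH (middle) and nintedanib-treated OHSS against OHSS (right). Points of all 3 panels lie right of 0, with medians of 3.35, 2.65 and 0.85, and many bars of the right panel cross 0, such as that of Stat2 at 0.22 with an SE of 0.66.

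Among the effectors, the Ifit genes encode tetratricopeptide proteins, of which that of Ifit1 binds RNA lacking host cap methylation and blocks its translation. Ifit1 had 44.3 and 515.1 CPM with nintedanib, 136.1 and 20.4 CPM in OHSS, and 1.60 and 1.82 CPM in COH. Each of the 4 OHSS libraries lay above both COH libraries, by 11.9-fold in OHSS replicate 2 to 300.9-fold in nintedanib replicate 2, and nintedanib replicate 1 lay between the OHSS libraries. Its log2 fold change was 5.51 with an SE of 1.57 for OHSS against COH (edgeR adjusted p = 0.533), 1.84 with an SE of 1.29 for nintedanib against OHSS (edgeR adjusted p = 0.769) and 7.35 with an SE of 1.69 for nintedanib against COH (edgeR adjusted p = 0.454). Ifit3 had 49.7 and 505.4 CPM with nintedanib, 156.7 and 24.4 CPM in OHSS, and 3.32 and 4.24 CPM in COH. Its log2 fold change was 4.58 with an SE of 1.43 for OHSS against COH (edgeR adjusted p = 0.536), 1.62 with an SE of 1.24 for nintedanib against OHSS (edgeR adjusted p = 0.790) and 6.20 with an SE of 1.54 for nintedanib against COH (edgeR adjusted p = 0.469). Without OHSS replicate 1 the fold changes of OHSS against COH were 3.59 for Ifit1 and 2.70 for Ifit3. The nearest copy of Ifit3, Ifit3b, had 21.7 and 219.6 CPM with nintedanib, 87.2 and 12.6 CPM in OHSS, and 0.927 and 1.58 CPM in COH. The transcripts of Ifit3 and Ifit3b are 97.8% identical over 1700 bases, so the split of reads between them is uncertain. Ifit2 had the lowest folds of the family, at 2.71 and 16.0-fold of the COH mean with nintedanib and 6.13 and 1.82-fold in OHSS.

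Bst2, which encodes tetherin, a membrane protein that holds budding virus at the cell surface, had the smallest fold change of the list in both comparisons with COH. It had 430.6 and 757.2 CPM with nintedanib, 543.7 and 172.9 CPM in OHSS, and 214.9 and 192.2 CPM in COH. OHSS replicate 2 lay below both COH libraries, at 0.849-fold of their mean, so OHSS and COH overlapped while the nintedanib libraries lay above COH. The log2 fold change was 0.82 with an SE of 0.56 for OHSS against COH (edgeR adjusted p = 0.708), and -0.22 without OHSS replicate 1. Rsad2, which encodes viperin, an enzyme that makes a chain-terminating nucleotide, had 14.1 and 177.2 CPM with nintedanib, 37.2 and 3.66 CPM in OHSS, and 2.81 and 0.981 CPM in COH. It showed the widest gap between nintedanib libraries of the 39, and its COH libraries themselves differed. Cmpk2, a mitochondrial nucleotide kinase, had 39.5 and 135.3 CPM with nintedanib, 63.2 and 18.8 CPM in OHSS, and 8.21 and 9.70 CPM in COH.

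The Oas genes encode enzymes that make oligoadenylates on binding double-stranded RNA and so activate RNase L, and the Oasl genes encode related proteins. Oasl2 had 173.4 and 217.3 CPM with nintedanib, 146.7 and 70.1 CPM in OHSS, and 23.5 and 22.5 CPM in COH. It was the one listed gene whose nintedanib libraries both lay above both OHSS libraries, and it had the lowest p of the list in each comparison. Its log2 fold change was 2.24 for OHSS against COH (edgeR adjusted p = 0.395), 0.85 for nintedanib against OHSS (edgeR adjusted p = 0.675) and 3.09 for nintedanib against COH (edgeR adjusted p = 0.222). Oas3 had 5.13 and 24.0 CPM with nintedanib, 14.1 and 0.561 CPM in OHSS, and 0.478 and 0.525 CPM in COH. OHSS replicate 2 thus stood at 1.12-fold of the COH mean for Oas3 while OHSS replicate 1 stood at 28.1-fold. Oas2 had 55.8 and 157.9 CPM with nintedanib, 81.4 and 20.3 CPM in OHSS, and 4.75 and 3.96 CPM in COH. Over the 6 Oas and Oasl genes the median fold over the COH mean was 10.7 and 36.1 with nintedanib and 18.4 and 3.27 in OHSS. Oas1a and Oas1g transcripts are 97.5% identical over 1860 bases, and their values are uncertain in the same way as those of Ifit3 and Ifit3b. In COH, Oas1g had 11 and 19 counts, Oas3 17 and 15 and Mx1 16 and 14, so counting error weighs on the folds of these 3 genes over COH.

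The Mx genes encode dynamin-like GTPases that trap viral components, and the Gbp genes encode guanylate-binding proteins that act on intracellular pathogens. Mx2 had 24.5 and 106.3 CPM with nintedanib, 60.5 and 17.0 CPM in OHSS, and 2.50 and 2.38 CPM in COH. Mx1 had 3.12 and 28.1 CPM with nintedanib, 17.8 and 2.54 CPM in OHSS, and 0.450 and 0.490 CPM in COH, and its transcript is 94.8% identical to that of Mx2 over 920 bases. Both were lower in OHSS replicate 2 and nintedanib replicate 1 than in the other 2 libraries of the model. Gbp3, which lay nearest to the mean pattern of the list of all 39, had 56.3 and 230.0 CPM with nintedanib, 125.0 and 24.1 CPM in OHSS, and 10.8 and 8.48 CPM in COH. The remaining effectors, Gbp7, Rtp4, Trim30a, Oas1a and Oasl1, kept the common order of libraries.

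The sensors comprise the RNA helicases Ddx58 (RIG-I) and Ifih1, which start interferon production on binding viral RNA, their relative Dhx58, the Z-nucleic acid sensor Zbp1, and the kinase Eif2ak2 (PKR), which stops translation on binding double-stranded RNA. Ddx58 had 123.1 and 305.4 CPM with nintedanib, 211.9 and 66.7 CPM in OHSS, and 30.8 and 34.4 CPM in COH. Ifih1 had 46.5 and 144.4 CPM with nintedanib, 85.5 and 19.6 CPM in OHSS, and 9.08 and 9.60 CPM in COH. Eif2ak2 had 80.7 and 153.4 CPM with nintedanib, 133.1 and 42.6 CPM in OHSS, and 22.2 and 16.8 CPM in COH. In all 3 the 4 libraries of the model lay above both COH libraries, and the nintedanib and OHSS libraries overlapped. The log2 fold changes for OHSS against COH were 2.09 with an SE of 0.67 for Ddx58, 2.49 with an SE of 0.84 for Ifih1 and 2.17 with an SE of 0.61 for Eif2ak2, with edgeR adjusted p-values of 0.542, 0.542 and 0.533, and 1.05, 1.09 and 1.14 in the fit without OHSS replicate 1. For nintedanib against OHSS they were 0.62, 0.86 and 0.41, with edgeR adjusted p-values of 0.842, 0.825 and 0.889. Zbp1 had the widest range among the sensors, at 14.0 and 52.2-fold of the COH mean with nintedanib and 27.5 and 2.35-fold in OHSS. DESeq2 called 4 of the 5 sensors in OHSS against COH, beside 1.21% of all genes, and 5 of the 5 in nintedanib against COH, beside 1.66%.

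Irf7, Irf9 and Stat2 encode transcription factors of the pathway, Irf7 being the one that drives a second wave of interferon production. Irf7 had 94.0 and 243.4 CPM with nintedanib, 157.7 and 26.7 CPM in OHSS, and 6.04 and 10.4 CPM in COH. Stat2 had 62.1 and 146.6 CPM with nintedanib, 138.7 and 40.1 CPM in OHSS, and 20.1 and 15.8 CPM in COH. Irf9 had 103.6 and 150.1 CPM with nintedanib, 137.4 and 70.1 CPM in OHSS, and 30.7 and 38.8 CPM in COH. Irf7 varied most of the 3, from 3.25-fold of the COH mean in OHSS replicate 2 to 29.7-fold in nintedanib replicate 2, and Irf9 least, from 2.02-fold to 4.31-fold in the same libraries. The log2 fold changes for OHSS against COH were 3.49 with an SE of 0.97 for Irf7, 2.32 with an SE of 0.69 for Stat2 and 1.58 with an SE of 0.37 for Irf9, with edgeR adjusted p-values of 0.533, 0.535 and 0.522, and 1.72, 1.18 and 1.03 in the fit without OHSS replicate 1. DESeq2 called all 3 in this comparison, beside 1.21% of all genes. For nintedanib against OHSS the log2 fold change was 0.87 for Irf7, 0.22 for Stat2 and 0.29 for Irf9, with edgeR adjusted p-values of 0.840, 0.950 and 0.873. Without OHSS replicate 2 those of Stat2 and Irf9 turned below 0, to -0.41 and -0.11.

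Isg15 encodes a ubiquitin-like protein that is attached to other proteins, Herc6 the main ligase for it in the mouse, and Usp18 the protease that removes it and also holds back signalling at the receptor. Isg15 had 37.2 and 174.8 CPM with nintedanib, 103.6 and 11.4 CPM in OHSS, and 2.89 and 2.31 CPM in COH. Usp18 had 37.4 and 142.5 CPM with nintedanib, 97.9 and 12.1 CPM in OHSS, and 1.85 and 2.21 CPM in COH. The modifier and its protease had similar folds over the COH mean, of 14.3 and 67.1 for Isg15 and 18.4 and 70.2 for Usp18 with nintedanib, and of 39.8 and 4.36 for Isg15 and 48.2 and 5.96 for Usp18 in OHSS. The ligase Herc6 had lower folds, with 53.3 and 176.5 CPM with nintedanib, 100.1 and 22.8 CPM in OHSS, and 15.2 and 14.5 CPM in COH. The log2 fold changes for OHSS against COH were 4.46 with an SE of 1.31 for Isg15, 4.76 with an SE of 1.23 for Usp18 and 2.05 with an SE of 0.85 for Herc6, with edgeR adjusted p-values of 0.533, 0.526 and 0.579, and 2.13, 2.59 and 0.63 in the fit without OHSS replicate 1. DESeq2 called Isg15 and Usp18 and not Herc6, beside 1.21% of all genes.

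Cxcl10, a chemokine that draws T cells and natural killer cells through the receptor Cxcr3, differed from the rest in the order of its libraries. It had 10.9 and 74.9 CPM with nintedanib, 19.0 and 13.1 CPM in OHSS, and 2.64 and 1.93 CPM in COH. The OHSS libraries were closer to each other than for any other listed gene, at a ratio of 1.45, and nintedanib replicate 1 lay below both of them. The log2 fold change was 2.80 with an SE of 0.91 for OHSS against COH (edgeR adjusted p = 0.542; 2.52 without OHSS replicate 1) and 1.42 with an SE of 0.84 for nintedanib against OHSS (edgeR adjusted p = 0.742), the last turning to -0.55 without nintedanib replicate 2. Its exons share 5.91% of their bases with Art3 on the other strand, so some of its reads could belong to that gene where strand was not used.

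Of the other genes, Ifi44 had 53.8 and 240.8 CPM with nintedanib, 129.5 and 12.3 CPM in OHSS, and 2.59 and 2.77 CPM in COH. Xaf1, whose protein binds an inhibitor of apoptosis, had 103.3 and 342.3 CPM with nintedanib, 187.3 and 26.7 CPM in OHSS, and 16.9 and 28.3 CPM in COH. Lgals3bp, a secreted glycoprotein that binds galectin, had 608.8 and 893.7 CPM with nintedanib, 828.0 and 130.1 CPM in OHSS, and 80.6 and 92.4 CPM in COH. For Xaf1, OHSS replicate 2 lay between the COH libraries, and for Lgals3bp it stood at 1.5-fold of the COH mean beside 9.58-fold for OHSS replicate 1. Ifi27l2a was nearly level in the 3 higher libraries, at 104.8 and 128.1 CPM with nintedanib and 119.0 CPM in OHSS replicate 1, with 16.6 CPM in OHSS replicate 2, and 9.25 and 12.4 CPM in COH. The log2 fold changes for OHSS against COH were 4.73 with an SE of 1.35 for Ifi44, 2.24 with an SE of 1.03 for Xaf1 and 2.47 with an SE of 0.83 for Lgals3bp, with edgeR adjusted p-values of 0.533, 0.607 and 0.542, and 2.21, 0.25 and 0.60 in the fit without OHSS replicate 1. Parp9 and Dtx3l, whose products form a complex that ADP-ribosylates and ubiquitinates proteins, had 2.97 and 8.10-fold (Parp9) and 2.75 and 6.72-fold (Dtx3l) of the COH mean with nintedanib, and 5.17 and 1.53-fold (Parp9) and 4.06 and 1.57-fold (Dtx3l) in OHSS. They lie on opposite strands and share 458 exonic bases, and Ifi35 shares 16.8% of its exonic bases with an antisense gene, and Rtp4, Herc6 and Gbp7 share 13.9, 13.7 and 11.3% with a gene on their own strand. How many reads fall in the shared bases is not known from the table.

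**Figure D3:**
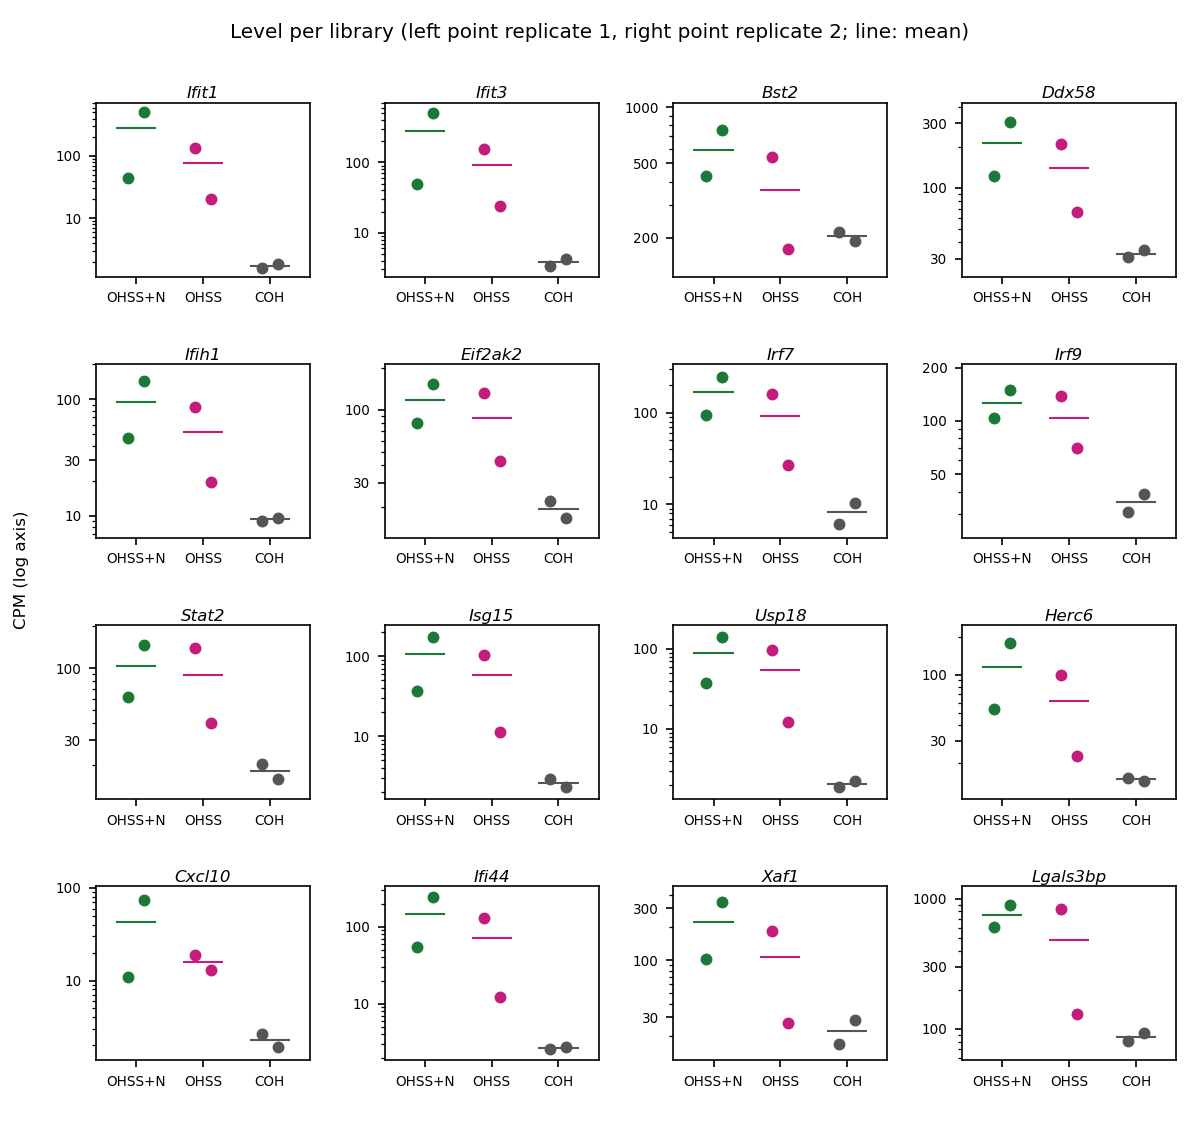
CPM of 16 of the genes in each library, on a log axis of its own for each gene, for OHSS with nintedanib (OHSS+N, green), OHSS (pink) and COH (grey); the left point of a pair is replicate 1, the right point replicate 2 and the line their mean. In each panel nintedanib replicate 2 and OHSS replicate 1 are the higher point of their own group, and the OHSS points of Bst2 lie on both sides of its COH points.

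The promoter match and the size of the difference were set side by side as a description. The 17 genes with a match had a median log2 fold change of 2.95 for OHSS against COH, and the 12 with none 2.22. The 8 of the 17 with at least 2 matches had 3.99. For nintedanib against COH the medians were 4.23, 3.17 and 5.0 in the same order. Among genes with exactly 1 match the middle value was 2.32 (Stat2) for OHSS against COH and 2.84 (Trim30a) for nintedanib against COH. The higher medians thus came from the 8, which include the near copies Ifit3 and Ifit3b, and Oas1a and Oas1g. Genes without a match included Ifi44, with a log2 fold change of 4.73, and Bst2 with 2 matches had the smallest fold change of the list, at 0.82.

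Upstream of these genes, the 21 interferon ligands listed, among them the alpha genes and Ifnb1, all had rows in the table, and none was kept by the filter on low counts. They summed to 4 and 1 counts with nintedanib, 9 and 5 in OHSS, and 10 and 7 in COH, and 16 of the 21 were at 0 in all 6 libraries. Ifnb1 and Ifng were at 0 in every library, and the counts present came from Ifnl3, Ifnz, Ifnl2, Ifna15 and Ifne. Ligand transcripts were therefore at the detection limit in each group at this depth.

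The receptor and kinase list had 11 genes besides those of the 39, with a median log2 fold change of 0.06 for OHSS against COH, -0.04 for nintedanib against OHSS and -0.003 for nintedanib against COH, and 0 edgeR calls in each. Ifnar1, named for its place in the pathway, had 106.7 and 102.4 CPM with nintedanib, 94.2 and 102.9 CPM in OHSS, and 103.4 and 111.7 CPM in COH. Tyk2 had 45.3 and 47.6 CPM with nintedanib, 46.7 and 49.1 CPM in OHSS, and 38.2 and 24.8 CPM in COH, and did not take the common order of the 39 (unadjusted p = 0.0345 for OHSS against COH by edgeR). The plot by pathway step shows the receptors and Jak1 near the COH level. Tyk2 lies above both COH libraries in the 4 libraries of the model, and the transcription factors lie further above.

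**Figure D4:**
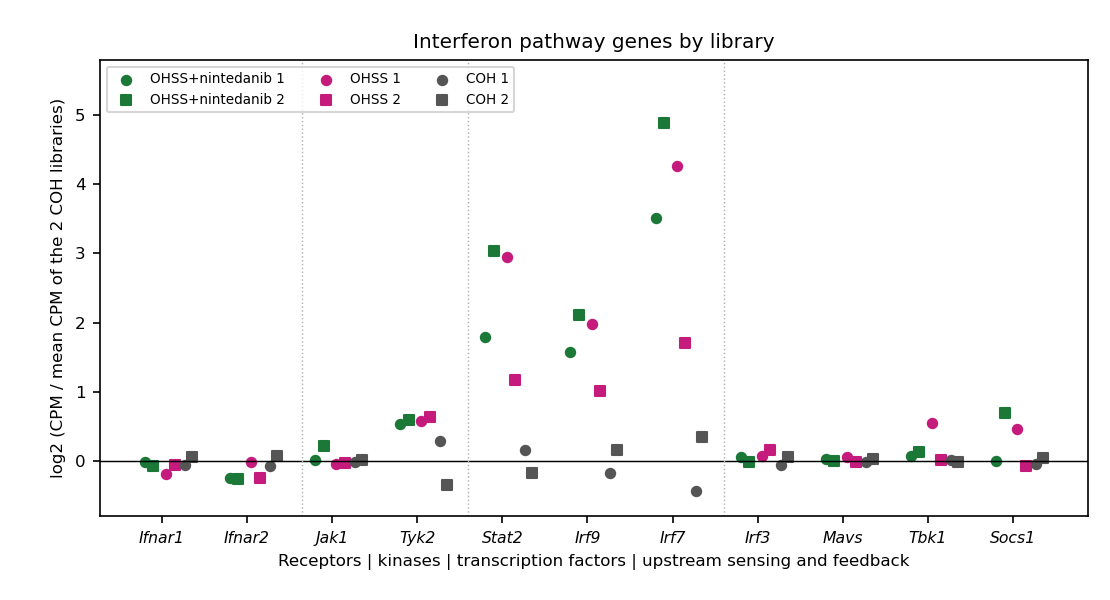
log2 of the CPM over the mean CPM of the 2 COH libraries for 11 genes of the interferon pathway, ordered along the x axis from receptors and kinases to transcription factors and then upstream sensing and feedback, with 1 point per library (circles replicate 1, squares replicate 2). Ifnar1, Ifnar2 and Jak1 lie within 0.3 of the COH mean in every library. The 4 OHSS-model libraries of Tyk2, Stat2, Irf9 and Irf7 lie above both COH libraries, those of Tyk2 by less than the others.

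The list of the sensing pathway had 15 genes with a median log2 fold change of 0.12 for OHSS against COH, and 0 edgeR calls. Trim25, a ubiquitin ligase that activates RIG-I, had 62.9 and 70.4 CPM with nintedanib, 86.0 and 145.9 CPM in OHSS, and 33.8 and 24.0 CPM in COH. Unlike the 39 genes it was highest in OHSS replicate 2. Among 12 genes that restrain the pathway, with a median of 0.11 and 0 edgeR calls, Adar, an enzyme that edits double-stranded RNA, had 123.0 and 158.6 CPM with nintedanib, 170.1 and 67.5 CPM in OHSS, and 45.6 and 41.6 CPM in COH. Of these 12, 8 were higher and 4 lower in OHSS than in COH. Rnaseh2c, of the same list, had 24.7 and 19.2 CPM with nintedanib, 16.8 and 16.7 CPM in OHSS, and 23.8 and 25.8 CPM in COH. The log2 fold change for OHSS against COH was 1.45 for Adar and -0.57 for Rnaseh2c. A list of 14 genes best known as targets of interferon gamma had a median log2 fold change of 0.94 for OHSS against COH and 1.81 for nintedanib against COH, with 12 of the 14 higher and 0 edgeR calls in each. DESeq2 called 3 and 5 of them higher, beside 1.21 and 1.66% of all genes. In that list Irf1 had 37.5 and 57.3 CPM with nintedanib, 43.7 and 44.7 CPM in OHSS, and 19.4 and 17.5 CPM in COH, so its OHSS libraries were nearly equal. Irgm1 had 85.2 and 246.7 CPM with nintedanib, 146.9 and 45.3 CPM in OHSS, and 22.8 and 20.2 CPM in COH. Irgm1, Irgm2, Igtp, Iigp1, Gbp5 and Tap1 took the common order of the 39. Irf1, Irf8, Ciita, Cxcl9, Gbp2, Gbp2b, Psmb8 and Psmb9 did not. Of 34 other type I targets tested, 27 were higher in OHSS than in COH, with a median of 1.16, 12 at an unadjusted p below 0.05 and 0 edgeR calls. DESeq2 called 6 of these 34, beside 1.21% of all genes.

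Genes outside the 39 whose levels over the 6 libraries lay closest to the mean pattern of the 39 were sought by root mean square distance of centred log2 CPM, among genes with a mean of at least 5 CPM. The 10 nearest were Igtp, Ddx60, Oas1b, Phf11d, Gm43302, Iigp1, Trim34b, Irgm1, Tgtp2 and Irgm2, at distances of 0.247 to 0.417. Of these, Igtp, Iigp1, Irgm1 and Irgm2 are in the list of interferon gamma targets, and Ddx60, Oas1b and Phf11d in that of other type I targets. Igtp, an immunity-related GTPase, had 32.2 and 116.8 CPM with nintedanib, 62.7 and 15.9 CPM in OHSS, and 7.45 and 7.67 CPM in COH. Among the 39 themselves the distance was 0.145 for Gbp3, the nearest, and 0.193 for Ifih1.

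Markers of cells that could carry or make interferon were read beside these results. The 8 granulosa cell markers were counted in each library and summed to 5008 and 4810 CPM with nintedanib, 3203 and 3205 CPM in OHSS, and 2959 and 2945 CPM in COH. Inha made up most of this sum in each library, with 3558 and 2879 CPM with nintedanib. With nintedanib 8 of the 8 were higher than in OHSS, with a median log2 fold change of 0.65 and 0 edgeR calls. DESeq2 called 4 of them higher than in COH, beside 1.66% of all genes. Among them Inhba, an inhibin and activin subunit, had 539.3 and 893.6 CPM with nintedanib, 270.9 and 389.5 CPM in OHSS, and 185.7 and 145.2 CPM in COH, while Foxl2 had 299.2 and 261.1 CPM with nintedanib, 240.3 and 236.1 CPM in OHSS, and 281.0 and 246.8 CPM in COH. Amh, of the same list, had 93.5 and 110.0 CPM with nintedanib, 79.5 and 98.0 CPM in OHSS, and 178.1 and 120.8 CPM in COH. Its log2 fold change was -0.75 for OHSS against COH and -0.55 for nintedanib against COH. Of the 8 markers, 6 were higher and 2 lower in OHSS than in COH. With nintedanib 7 were higher and 1 lower than in COH. Of 10 endothelial markers, which summed to 879.5 and 868.9 CPM with nintedanib, 715.1 and 744.0 CPM in OHSS, and 809.3 and 820.0 CPM in COH, 9 were higher with nintedanib than in OHSS. There were 0 edgeR calls among them, and 2 DESeq2 calls, beside 0.604% of all genes. Of 13 macrophage markers, whose summed level was 435.2 and 399.2 CPM with nintedanib, 709.4 and 456.7 CPM in OHSS, and 593.7 and 640.1 CPM in COH, 0 were called in OHSS against COH by edgeR. There 10 of the 13 were higher, with a median log2 fold change of 0.21, and 11 of the 13 were lower with nintedanib than in OHSS, with a median of -0.31. Lyz2, the lysozyme gene of these cells and a large part of their sum, had 82.2 and 50.7 CPM with nintedanib, 166.7 and 137.4 CPM in OHSS, and 239.5 and 262.1 CPM in COH. Bst2 and Irf7 of the 39 are also among 9 markers listed for plasmacytoid dendritic cells, and the other 7 summed to 229.4 and 312.9 CPM with nintedanib, 333.2 and 456.8 CPM in OHSS, and 363.4 and 285.0 CPM in COH. Runx2 and Tcf4 made up most of that sum in each library, with 170.8 and 42.4 CPM in nintedanib replicate 1. The sum therefore says little of the other markers in it. Siglech, a defining marker of plasmacytoid dendritic cells, stood at 0.382 and 0.779 CPM with nintedanib, 0.450 and 0.561 CPM in OHSS, and 0.871 and 0.525 CPM in COH. Summed lymphocyte markers were 12.7 and 11.0 CPM with nintedanib, 14.7 and 13.7 CPM in OHSS, and 11.5 and 15.3 CPM in COH. Of the 14 tested, 3 were higher and 11 lower in OHSS than in COH, with 0 edgeR calls. DESeq2 called 1 higher, beside 1.21% of all genes. Gzmb, with the smallest unadjusted p of these, had 2.25 and 1.43 CPM with nintedanib, 2.93 and 3.70 CPM in OHSS, and 0.703 and 1.05 CPM in COH. Summed neutrophil markers were 8.05 and 5.70 CPM with nintedanib, 7.81 and 13.4 CPM in OHSS, and 8.77 and 8.79 CPM in COH. None of the sums of these cell type markers took the order of the 39 genes. A sum can hide single markers. Fcgr1, a macrophage receptor that interferon is known to induce, had 7.01 and 17.8 CPM with nintedanib, 18.0 and 4.52 CPM in OHSS, and 4.44 and 4.48 CPM in COH. Ly6c2 of the same list had 3.26 and 5.92 CPM with nintedanib, 5.85 and 1.35 CPM in OHSS, and 1.60 and 1.86 CPM in COH. Neither took the full order of the 39. Mertk varied less, with 18.9 and 19.0 CPM with nintedanib, 23.6 and 17.1 CPM in OHSS, and 17.8 and 15.2 CPM in COH. Handling of the tissue was read from immediate early genes, whose sum was 778.1 and 1626 CPM with nintedanib, 745.4 and 923.5 CPM in OHSS, and 1179 and 1498 CPM in COH. The 13 mitochondrial transcripts, a second sign of RNA handling, summed to 57084 and 54331 CPM with nintedanib, 69702 and 71189 CPM in OHSS, and 49735 and 58419 CPM in COH. Of these, 12 of 13 were higher in OHSS than in COH and 13 of 13 were lower with nintedanib than in OHSS, with 0 edgeR calls in each. The part of these markers and transcripts in the results was not tested.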

How the data were processed

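Ovarian RNA of ICR mice was sequenced in 6 libraries, grouped and numbered by their titles. The authors deposited 1 table of raw whole-number counts for 51826 gene IDs, per the file headers, with gene names beside the IDs. No sample column was left unused (0). Tools listed in the submitters' processing notes, without their roles, are StringTie 1.3.3b, HISAT2 2.1.0 and Trimmomatic 0.36, and the listed build is mm8. The counting program, the annotation, and the handling of strand and of reads with several matches are not given in these sources. The deposited counts came to 72.1 to 74.0% of the reads but 144 to 148% of the pairs, so a pair appears to count as 2, and counting error is larger than a count alone gives.

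Genes were filtered with filterByExpr and scaled with TMM (factors of 0.961 to 1.03) in edgeR 4.0.16 under R 4.3.3. One quasi-likelihood fit of the 3 groups, with 3 residual and 2.41 prior degrees of freedom, gave two-sided tests with Benjamini-Hochberg adjustment over all 19027 genes tested. CPM use the scaled library size, and errors are standard errors derived from the F statistic. With 2 libraries a group no exact permutation test can pass 0.05, and none is given. The script was tested on simulated data. The alternatives were RLE, upper quartile and plain library size scaling, DESeq2 1.42.0, voom in limma 3.58.1, a stricter filter and none, a block for the replicate number, fits restricted to the pair of groups compared, and each library left out in turn.

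The members and lists were chosen with earlier results of these data known. Levels and the fit of OHSS against COH are given for up to 3 members per role class with the largest mean CPM. The fits with nintedanib are given for some of these. Oasl2 was added after its values were seen. Other members are given by values or range. Genes of other lists were taken from the 4 of their list with the smallest unadjusted p-values in OHSS against COH. Not every such gene is given, and some lists have none. Ifnar1, Foxl2, Siglech and the genes of the pathway plot are named for their known roles. Inha, Runx2 and Tcf4 are named as large parts of the sums of their lists. Promoter sequences are from RefSeq (GRCm38.p6), and transcript identity (blastn 2.17.0) and exon overlap from a GRCm38 annotation, a build other than the one named for the counts, so no coordinate was joined to the counts. The result of 1 gene of a pathway list is not reported here.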

Additional observations from a re-analysis of the deposited data

How the results depend on the processing

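The members' median log2 fold change stayed above 0 under every alternative but 1, nintedanib against OHSS without nintedanib replicate 2. Over the libraries left out it ranged from 1.14 to 3.25 for OHSS against COH, from -0.18 to 2.31 for nintedanib against OHSS, and from 2.70 to 3.95 for nintedanib against COH. DESeq2 called 21 members in OHSS against COH, 0 in nintedanib against OHSS and 33 in nintedanib against COH, with 360, 223 and 449 genes called in all. The number of genes called by edgeR, 2, 1 and 5 in that order of comparisons, was 4 and 2 with no filter in the first and second comparison, 0 in the first and second and 2 in the third when only the 2 groups compared were fitted, and 0 to 2, 0 to 30 and 0 to 53 with each library left out. With limma voom it was 0 in the first and 2 in the third. Members called with a library left out ranged from 0 to 1 in nintedanib against COH. With each library left out, the log2 fold change of Bst2 for OHSS against COH ranged from -0.22 (without OHSS replicate 1) to 1.41. For nintedanib against OHSS, the lowest value came without nintedanib replicate 2 for Ifit1 (-0.82 to 3.75), Ifit3 (-0.86 to 3.49), Ddx58 (-0.18 to 1.66), Ifih1 (-0.18 to 2.26), Stat2 (-0.53 to 1.36), Isg15 (-0.63 to 3.20), Usp18 (-0.56 to 2.87), Herc6 (-0.20 to 2.31), Cxcl10 (-0.55 to 2.22), Ifi44 (-0.40 to 3.56) and Xaf1 (-0.052 to 3.04). It came without OHSS replicate 2 for Eif2ak2 (-0.18 to 1.44), Irf9 (-0.11 to 0.84) and Lgals3bp (-0.14 to 2.51). Of these, Stat2 and Usp18 were also below 0 without OHSS replicate 2 (-0.41 and -0.12), and Eif2ak2 and Irf9 without nintedanib replicate 2 (-0.12 and -0.0019). Fewer libraries enter these fits. The cause of the other differences was not tested.

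Same-numbered libraries were not treated as pairs in the main fit. Their deviations from the group means correlated at -0.000723, 0.0484 and -0.00226, which cannot show whether they were collected or handled together. With the replicate block, members called were 0 in each comparison, and 1, 0 and 2 genes were called in all. An unadjusted edgeR p below 0.05 was found for 19, 0 and 36 members, beside 1474, 1242 and 1623 of 19027 genes in either direction. These counts are for OHSS against COH, nintedanib against OHSS and nintedanib against COH, in that order.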
